A study of Mus musculus with 4 samples.

Results

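The genes described here serve 2 tasks of an olfactory receptor neuron (ORN): bringing odorant receptors to the cell surface, and choosing and keeping 1 receptor gene per neuron. The list held 10 genes, namely Rtp1, Rtp2 and Reep1 for receptor trafficking, and Lhx2, Ldb1, Emx2, Ebf1, Kdm1a, Ddit3 and Atf5 for receptor choice. They were taken as the non-control probes whose transcript accession maps to these symbols, which gave 14 probes for 10 genes, of 56605 probes for 45604 genes in all. The rule uses no measured value, but the list was chosen with earlier results of these data known.

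Gene expression was compared between young adult mice (8 weeks) and aged mice (16 months) in septal nasal mucosa, the lining of the nasal septum, on 4 one-color arrays, 2 per age. Every array held Cy3-labelled RNA pooled from 5 mice of the C57BL/6J strain, which were wild-type and, per the paper's methods, male. The labels name the tissue olfactory epithelium, but the dissected mucosa also holds the connective tissue below it. Some labels mention silica aspiration and lung, against the sample titles and the paper, and were not used. Whether mice went into both pools of an age is not stated, so the p-values below measure only the spread between these pools, which may be partly technical. Array 1 of each age came from a common slide, while the remaining arrays came from separate slides.

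Odorant receptors are poorly exported from the endoplasmic reticulum of most cells, and RTP1 and RTP2 are membrane proteins that help them to the surface of ORNs. A neuron expresses 1 allele of 1 receptor gene: LHX2 and EBF proteins bind the enhancers and promoters of receptor genes, LDB1 joins LHX2-bound enhancers into a hub, and the demethylase LSD1 (encoded by Kdm1a) opens the repressed receptor locus. The first receptor protein made loads the endoplasmic reticulum, the stress kinase PERK (Eif2ak3) favours translation of ATF5, and ATF5 together with adenylyl cyclase 3 (Adcy3) ends LSD1 expression, which fixes the choice.

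None of the 10 genes passed the test between the ages. All 10 were well above background on all 4 arrays, as were 26727 of the 45604 genes. Levels below are normalized intensities in arbitrary units, and a gene's level is not set against another gene's, since probes differ in their response. A gene was called when limma gave P below 0.05 and its FDR (Benjamini-Hochberg, all genes) was below 0.25, which are the study's own limits. By this rule 1817 genes were called (3.98%), 754 of them higher in aged mice (1.65%) and 1063 lower (2.33%). Of the members 0 were called, and 0 had an unadjusted p below 0.05 in limma, the lowest being 0.136 for Reep1. With an intensity trend in limma's variance prior, 2 members were called higher, Rtp1 (FDR 0.166) and Reep1 (FDR 0.170), in a setting in which 7.92% of all genes were called higher. In these bulk samples fewer cells of a type and less RNA per cell cannot be told apart.

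The 3 trafficking genes had log2 fold changes of 0.12 to 0.18, with both aged arrays above both young adult arrays in each. This order of the arrays held for 24.2% of all genes. Rtp1, the receptor transporting protein most used to bring odorant receptors to the surface of cultured cells, had levels of 3741 and 3725 in young adult mice and 4185 and 4062 in aged mice. Both aged values lay above both young adult values, and the 2 young adult values were nearly equal. The log2 fold change was 0.14 ± 0.0754 (SE, n = 2 per age, limma, FDR 0.530), a difference of 10.5% that did not pass the test. Rtp2, its close relative with an overlapping role, read 5103 and 4969.6 in young adult and 5561 and 5379 in aged mice, again without overlap (log2 fold change 0.12 ± 0.0773, limma, FDR 0.597). Its 2 probes gave log2 fold changes of 0.06 and 0.17. Rtp1 and Rtp2 are paralogs, and how far their probes share signal was not tested.

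Reep1 encodes a membrane-shaping protein of the endoplasmic reticulum that was found, with the RTP proteins, to raise surface odorant receptors in cultured cells. Its levels were 3783 and 4139 in young adult and 4393 and 4561 in aged mice, so that the groups did not overlap, although the 2 young adult arrays differed by 0.13 on the log2 scale. Its log2 fold change, 0.18 ± 0.0913 (SE, n = 2 per age, limma, FDR 0.523), was the highest among the members. The 95% interval of its fold change ran from 0.936 to 1.37.

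The product of Ebf1, a member itself, binds a core that was searched as TCCCNNGGG, and 1 of the member promoters holds these letters. The stretch shown is the 120 bases before the transcription start of Reep1 (RefSeq, GRCm38.p6, chr6:71707561-71707680, plus strand), in lower case with the match to the EBF core TCCCNNGGG in capitals, at positions -66 to -58 from the start.

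Reep1: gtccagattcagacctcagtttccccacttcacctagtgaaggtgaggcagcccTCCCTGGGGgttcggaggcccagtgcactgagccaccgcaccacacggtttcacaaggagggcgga

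The table of promoters held 14 windows (250 bases before to 50 after a start) for 9 of the 10 members, and 1 of the 14 held this core on either strand, beside 6.56% of all 32851 windows. The homeodomain core TAATTA, a kind of letters that LHX2 and EMX2 bind, stood in 1 member window, that of Emx2 (after its start), and in 5.29% of all windows. The composite element TGATGNAAT of ATF4 and the Ddit3 product CHOP stood in 0 of the 14 member windows and in 0.965% of all. Such matches are letters in a window and not sites shown to be bound.

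Among the factors that bind receptor enhancers, the groups also lay close together. Lhx2, a LIM homeodomain factor needed for ORN maturation and for most receptor genes, had levels of 21002 and 21583 in young adult and 22695 and 22450.4 in aged mice. Both aged arrays were above both young adult arrays, and the log2 fold change was 0.08 ± 0.0753 (limma, FDR 0.686). Ldb1, the adaptor through which LHX2-bound enhancers meet, read 1718 and 1681 in young adult and 1750.2 and 1789.5 in aged mice, with a log2 fold change of 0.06 ± 0.0756 (limma, FDR 0.777). These groups did not overlap either, but its brighter probe showed -0.0026 and its dimmer probe 0.12.

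Emx2, a homeodomain factor that many receptor genes need, had levels of 9596 and 9562 in young adult and 10003 and 9526 in aged mice. The lower aged array fell below both young adult arrays, so the groups overlapped (log2 fold change 0.03 ± 0.0784, limma, FDR 0.905). Ebf1, the founding EBF factor, which was found as a protein binding the Omp promoter, read 4798 and 4305 in young adult and 4602 and 4779.6 in aged mice. Its 2 young adult arrays differed by 0.16 on the log2 scale, the widest gap between arrays of an age among the members, and the groups overlapped (log2 fold change 0.05 ± 0.0974, limma, FDR 0.871). Ebf1 is also made in fibroblasts and B cells. Of 7 fibroblast markers 5 were called lower in aged mice, with summed levels of 226073 to 250754 in young adult and 117652 to 125682 in aged mice. Of 7 B cell markers 0 were called, with summed levels of 677 to 717 in young adult and 607 to 895 in aged mice, and 4 of the 7 were well above background on all arrays. Their part in the Ebf1 values was not tested.

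Kdm1a, whose product LSD1 removes methyl groups from histone H3 and is transient in the ORN lineage, was the one member whose aged arrays both lay below the young adult arrays. Its levels were 8069 and 8335 in young adult and 7814 and 7975 in aged mice (log2 fold change -0.05 ± 0.0766, limma, FDR 0.793). Over all genes, both aged arrays lay above both young adult arrays in 24.2% and below them in 21.8%, while among the members this held for 6 and 1. Markers of immature ORNs and of basal and progenitor cells were read in the same comparison. Of 10 immature ORN markers 1 was called lower (Dpysl3, a growth cone protein, log2 fold change -0.40), and the list's median was -0.28. Among these 8 lay below 0 and 2 above, the lowest being Gap43 at -0.41 (limma, FDR 0.251), which just missed the limit. Of 11 basal and progenitor cell markers 4 were called lower, namely Top2a, Kit, Mki67 and Krt5 at -0.61 to -0.49, with a list median of -0.30. On this list 8 markers lay below 0 and 3 above, the highest being Lgr5 at 0.37 (limma, FDR 0.258). Summed levels of the immature markers were 77064 to 78278 in young adult and 62254 to 62781 in aged mice, and those of the basal and progenitor markers 34832 to 35263 and 28080.5 to 28666. Their part in the Kdm1a values was not tested.

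The 2 members of the stress feedback gave no call. Ddit3, which encodes the stress factor CHOP, read 1714 and 1829 in young adult and 1699.7 and 1780.3 in aged mice, and the groups overlapped (log2 fold change -0.03 ± 0.0859, limma, FDR 0.919). Atf5 was bright on every array, at 186988 and 175511 in young adult and 196913 and 195979.7 in aged mice, with both aged arrays above both young adult arrays. Its log2 fold change was 0.12 ± 0.0816 (limma, FDR 0.616), and its 2 probes gave 0.15 and 0.09. The array measures transcript and not the ATF5 protein, which is set largely by translation.

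**Figure D1:**
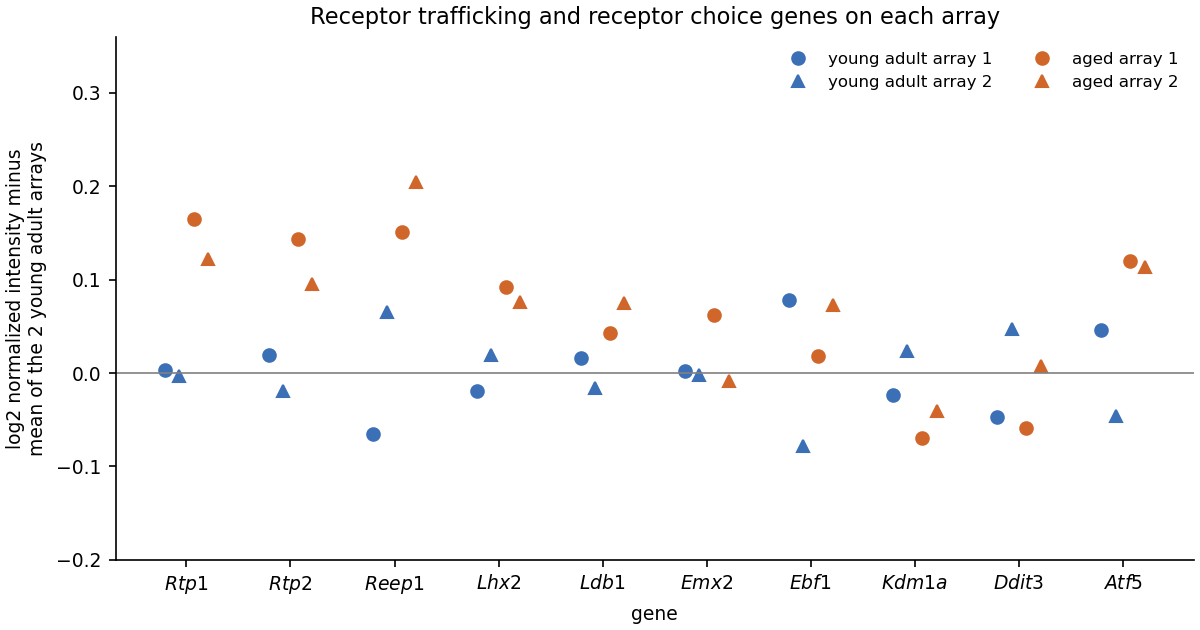
Normalized log2 intensity of each of the 10 genes on each of the 4 arrays (points; circles share a slide), minus the mean of the 2 young adult arrays of that gene. The aged points of Rtp1, Rtp2, Reep1, Lhx2, Ldb1 and Atf5 lie above both young adult points, those of Kdm1a below, and those of Emx2, Ebf1 and Ddit3 overlap with them.

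Although no member was called, the intervals bounded the differences between these pools. The 95% intervals of all 10 log2 fold changes included 0 and ran from -0.28 at the lowest to 0.45 at the highest, within a fold change of 1.5 in either direction (0.58 on the log2 scale), as did 21454 of all 45604 intervals (47.0%). A change as large as the study's limit for a differentially expressed gene therefore lay outside the interval of each member. These intervals rest on 2 pools per age and do not measure the spread between mice. Of the 10 log2 fold changes 8 were above 0 and 2 below, while over all 45604 genes 23474 were above 0. The median of the members was 0.07 beside 0.01 over all genes. An exact permutation of 2 against 2 arrays cannot give a p below 0.333, so single genes were tested only in the fit over all genes. On the slide that held 1 array of each age, 7 of the 10 differences were above 0, from -0.06 for Ebf1 to 0.22 for Reep1, with no test.

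Mature ORN markers were read beside these genes. All 10 (Omp, Gnal, Cnga2, Cnga4, Cngb1, Stoml3, Ano2, Gng13, Carns1 and Umodl1) were well above background on all arrays and had both aged arrays above both young adult arrays, with a median log2 fold change of 0.20. Of the 10 only 1 was called, Stoml3, a stomatin-like protein of ORN cilia, at 30691 and 29551 in young adult and 41364 and 39866 in aged mice (log2 fold change 0.43, limma, FDR 0.244). Omp, the classical marker of the mature ORN, had a log2 fold change of 0.15 (limma, FDR 0.549). By histology, the paper counted significantly fewer OMP-positive mature ORNs in the septal epithelium of aged mice. A cell count per length of epithelium and a normalized RNA level of the whole mucosa are unlike measures. The mean of the 10 markers shifted by 0.21 on the log2 scale. When each array was scaled to this mean and all genes were refitted, the 10 members lay at -0.27 to -0.04 with a median of -0.14, while the median of all genes moved to -0.21. Kdm1a was then called lower (log2 fold change -0.27, 95% interval -0.53 to -0.01, limma, FDR 0.230), in a setting in which 19.5% of all genes were called lower. The other 9 members were not called relative to the markers, with Reep1 nearest to 0 at -0.04 (limma, FDR 0.842).

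**Figure D2:**
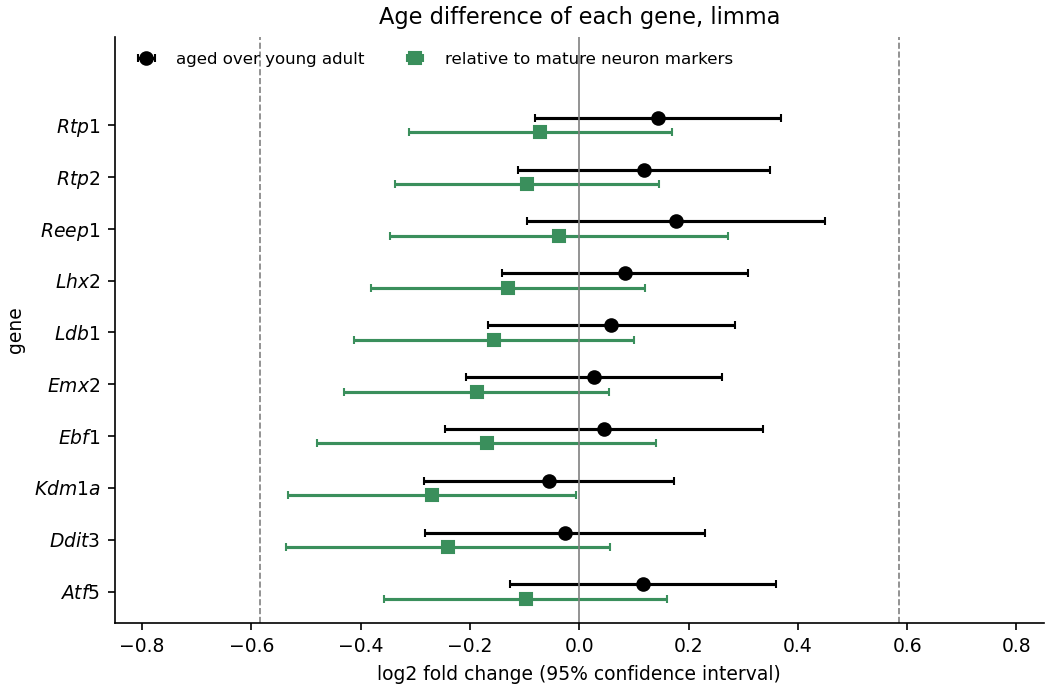
Log2 fold change of each gene (aged over young adult) with its 95% confidence interval from limma, as measured (black circles) and after scaling each array to the mean of 10 mature ORN markers (green squares). Dashed lines mark a 1.5-fold change. All black intervals cross 0 and stay within the dashed lines, and after scaling only the interval of Kdm1a, -0.53 to -0.01, stays below 0.

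The other genes of these pathways were read from 4 lists holding 66 genes. Of these 1 was called higher and 4 lower, 5 of 66 in all, beside 1.65% and 2.33% of all genes (3.98% in either direction). The counts of each list below stand beside the same shares. The median log2 fold change was -0.0038. Of the 66 intervals 55 lay within a 1.5-fold change, beside 47.0% over all genes. With any single array left out, of either age, 0 genes were called in these lists and over all genes, and no gene's FDR reached the limit with 3 arrays (lowest 0.404 to 0.683), so the number of calls there says nothing about a gene. The log2 fold changes in those fits ran from -0.72 to -0.68 for Rtp4, -0.73 to -0.63 for Ldb2, -0.41 to -0.39 for Kdm1b, -0.59 to -0.53 for Edem1 and 1.04 to 1.22 for Chac1.

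Of the other RTP and REEP genes and Ric8b, 8 in all, 1 was called. Rtp4, a relative of Rtp1 that is induced by interferon and also serves opioid receptors, fell from 3358 and 3397 in young adult to 2044 and 2101 in aged mice (log2 fold change -0.70 ± 0.0754, limma, FDR 0.185). All other members of this list missed the test. Ric8b, a chaperone for the olfactory G protein, read 4444 and 4546 in young adult and 5406 and 5321 in aged mice (log2 fold change 0.26, limma, FDR 0.342). Reep2 had a log2 fold change of -0.31 (limma, FDR 0.599), and Rtp3, at 22.5 and 46.9 in young adult and 21.1 on both aged arrays, was well above background only on 1 young adult array. Refitting all genes relative to Rtp1 on each array gave Rtp4 a difference of -0.85 ± 0.0872 (95% interval -1.11 to -0.59, limma, FDR 0.173), where 7.57% of all genes were called lower than Rtp1. This comparison and 3 like it (Ldb2 to Ldb1, Kdm1b to Kdm1a and Chac1 to Ddit3) were chosen after the values had been seen. Their intervals and FDRs are therefore no further support for a difference within a pair. Of the macrophage and monocyte markers, another cell type that makes Rtp4, 2 of 7 were called lower (Cd68 at -0.78 and Mrc1 at -0.65), with summed levels of 11908 to 12444 in young adult and 10459 to 10607 in aged mice. Their part in the Rtp4 values was not tested.

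Of 19 other transcription factors and LDB1 partners 1 was called. Ldb2, the second LIM-domain-binding adaptor, fell from 914 and 862 in young adult to 536 and 574 in aged mice (log2 fold change -0.68 ± 0.0889, limma, FDR 0.202), while Ldb1 had 1718 and 1681 against 1750.2 and 1789.5. Relative to Ldb1 the difference of Ldb2 was -0.74 ± 0.0828 (95% interval -0.98 to -0.49, limma, FDR 0.179), with 3.79% of all genes called lower than Ldb1. The other EBF genes lay above 0 without passing: Ebf3 at 0.33 (limma, FDR 0.306), Ebf2 at 0.21 (FDR 0.389) and Ebf4 at 0.07 (FDR 0.740). Nfix, a nuclear factor I gene, had a log2 fold change of -0.35 (limma, FDR 0.270), with 3713 and 3658 in young adult and 2884 and 2913 in aged mice. Emx1, the relative of Emx2, read 21.4 and 30.1 in young adult and 40.9 and 38.3 in aged mice, and none of these 4 values was well above background.

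Of 15 genes of heterochromatin and the LSD1 complex 1 was called. Kdm1b, which encodes the second LSD demethylase LSD2, fell from 232 and 235 in young adult to 176 and 177 in aged mice (log2 fold change -0.40 ± 0.0742, limma, FDR 0.245), under the 1.5-fold limit of the study and just inside the FDR limit. This call was made in 6 of 16 tested alternatives (without the scaling to ORN markers), over which its log2 fold change ran from -0.55 to -0.24, and it was lost, for instance, without background correction (limma, FDR 0.257) and with scaling to the 75th percentile (FDR 0.359). Relative to Kdm1a its difference of -0.35 did not pass (95% interval -0.58 to -0.11, limma, FDR 0.288), in a setting in which 1.44% of all genes were called lower. The CoREST genes whose products hold LSD1 on chromatin, Rcor1 and Rcor2, had log2 fold changes of -0.20 (limma, FDR 0.431) and -0.26 (FDR 0.456). The median of the list was -0.10, and 10 of the 15 lay below 0. Setdb1 and Ehmt2, whose products write repressive marks on histone H3, were at 0.00 and 0.04.

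Of 24 genes of the unfolded protein response and Adcy3, 1 was called higher and 1 lower, while 14 lay above 0 and 10 below. Chac1, which encodes a glutathione-degrading enzyme and is a target of ATF4 and CHOP, rose from 2912 and 2571 in young adult to 6057 and 5912 in aged mice (log2 fold change 1.13 ± 0.102, limma, FDR 0.178). Ddit3 was at 1714 to 1829 and 1699.7 to 1780.3 on the same arrays, and relative to it Chac1 was higher by 1.15 ± 0.143 (95% interval 0.74 to 1.56, limma, FDR 0.242), with 0.528% of all genes called higher than Ddit3. Edem1, which marks misfolded glycoproteins for degradation, fell from 885 and 924 to 602 and 623 (log2 fold change -0.56, limma, FDR 0.208), under the 1.5-fold limit of the study. Ern2, an epithelial stress sensor of mucous cells, had a log2 fold change of -0.60 (limma, FDR 0.279). In the feedback on LSD1 itself, Eif2ak3 was at -0.01 (limma, FDR 0.976), Atf4 at 0.24 (FDR 0.367) and Adcy3 at 0.32, with 5022 and 5068 in young adult and 6393 and 6222 in aged mice (limma, FDR 0.289). Other targets and arms of the response, Trib3 (0.06), Asns (-0.09), Hspa5 (-0.17) and Xbp1 (0.02), did not pass.

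**Figure D3:**
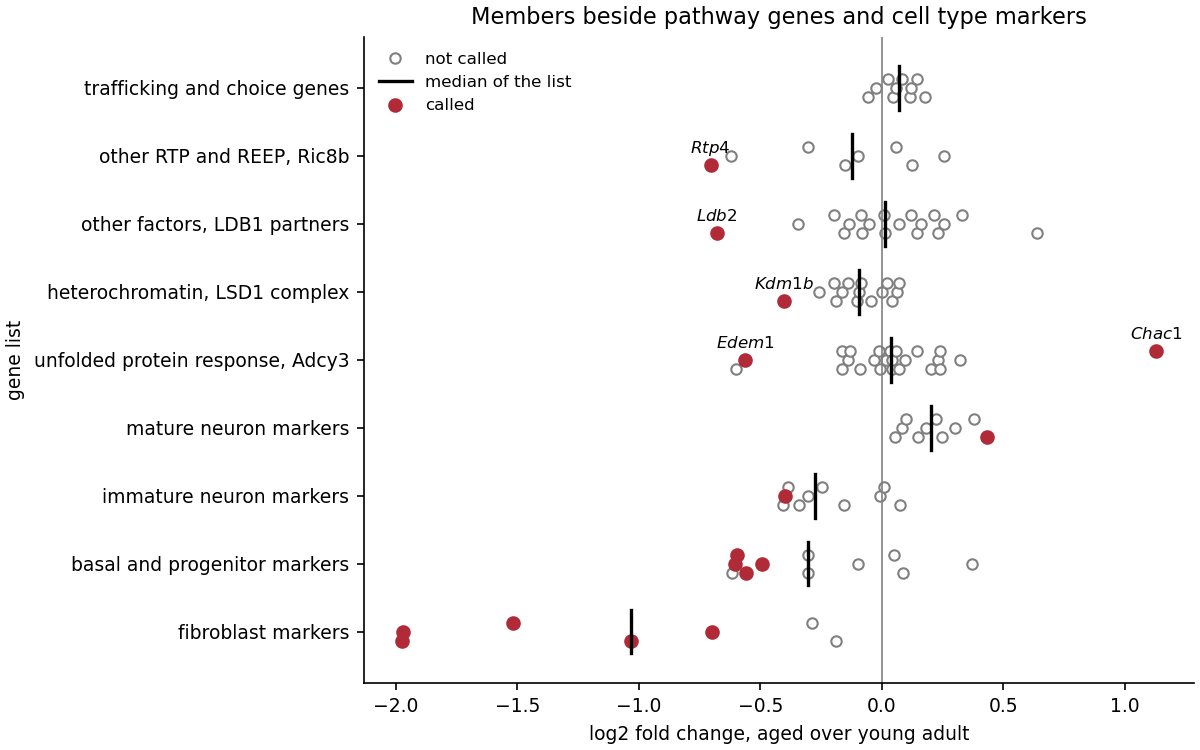
Log2 fold change (aged over young adult) of each gene in the member list, 4 pathway lists and 4 marker lists. Open points were not called, red points were called by limma, and black bars are medians. The 10 members lie between -0.05 and 0.18, the 5 called pathway genes are named (Rtp4, Ldb2, Kdm1b, Edem1 and Chac1), and 5 fibroblast markers were called lower.

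Markers of other cells in the mucosa gave the following counts. Of 7 sustentacular cell markers 1 was called higher (Cyp1a2, 0.54), with a list median of 0.13. On this list 6 lay above 0 and 1 below, Ugt2a1 at -0.38 (limma, FDR 0.297). Of 7 respiratory and ciliated markers 1 was called higher (the mucin Muc5b, 0.44) and 1 lower (the mucin Muc5ac, -2.10). Of 5 measured vomeronasal markers 1 was called higher, H2-M10.3 at 1.73, a gene that the paper already lists as higher with age on these arrays. Only 2 of the 5 were well above background on all arrays. The 5 fibroblast markers called lower were Col1a1, Col3a1, Col1a2, Postn and Lum, at -1.98 to -0.70.

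The members were read again under other processing. Over 17 alternatives without the scaling to ORN markers, 5 members (Rtp1, Rtp2, Reep1, Lhx2 and Atf5) were above 0 in all 17 and Kdm1a was below 0 in all 17. Reep1 ranged from 0.11 to 0.26 and Rtp1 from 0.10 to 0.17. The 4 others, Ldb1, Emx2, Ebf1 and Ddit3, changed sign in at least 1 alternative, with Ebf1 running from -0.06 to 0.12.

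**Figure D4:**
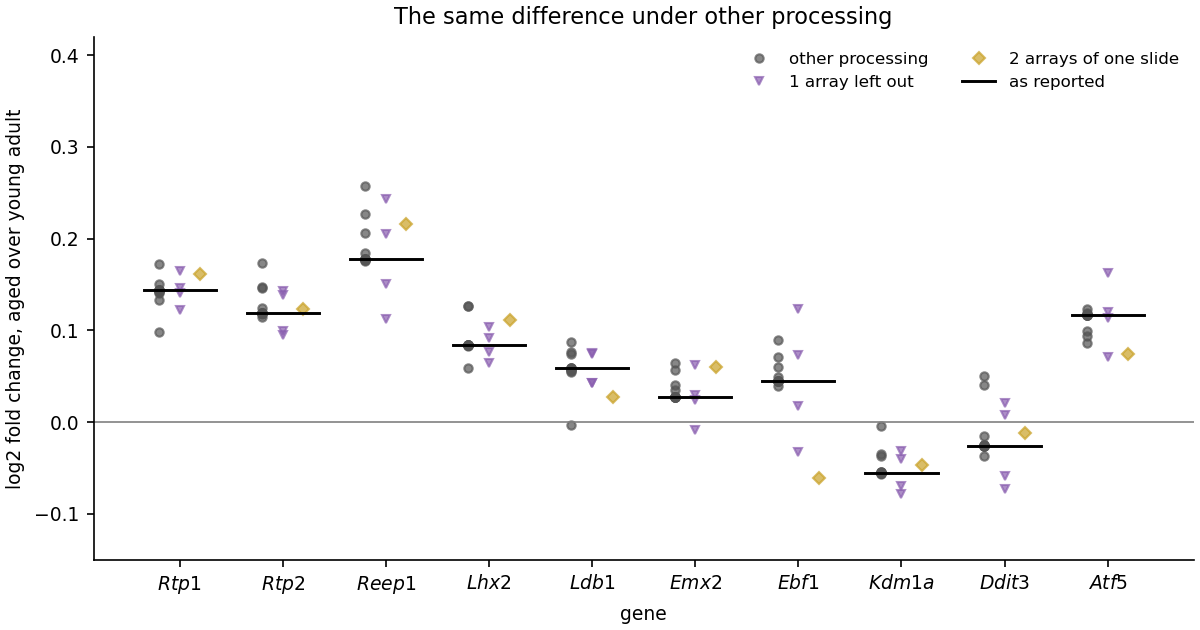
Log2 fold change of each gene (aged over young adult) as reported (black bars), under other processing (grey points), with 1 array left out (purple triangles) and on the 2 arrays of one slide (yellow diamonds). Reep1 ranges from 0.11 to 0.26, and no value of any gene reaches the 1.5-fold limit of 0.58.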

How the data were processed

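RNA of septal nasal mucosa was measured on 4 Agilent one-color arrays. The authors deposited spot intensity values from Agilent Feature Extraction (median signal, local background and a processed signal), not normalized between arrays, with other columns that hold quality flags, which the scanner software set. Their further work used R 3.2.1, per the submitters' processing notes. The table of the whole series equalled the processed signal for all 62976 spots of each array (relative tolerance 1e-06). Spots well above background were 63.1 to 76.8% of the non-control spots per array, and 0 were saturated. The number of arrays limits the precision.

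Here the tools were R 4.3.3, limma (version 3.58.1) and data.table (version 1.17.8). Background was corrected with normexp at an offset of 0. Control and outlier-flagged spots (88 to 118 per array) were left out, spots were averaged per probe on the log2 scale, and probes per gene after quantile normalization. Probe accessions were matched to RefSeq symbols of GRCm38.p6 (32994 of 56605 probes matched). The 45604 genes with a value on every array were fitted with lmFit and eBayes on all 4 arrays without covariates. The fit was tested on simulated data before use. Calls required P below 0.05 and FDR below 0.25. The paper's methods give limma, the quantile method and these limits. Motifs were searched with Python.

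Named are all members, called pathway and marker genes, and the 3 pathway genes per list with the largest absolute change. A few further pathway genes (the other EBF genes, Ric8b, Adcy3, Atf4, Eif2ak3, Setdb1, Ehmt2, Trib3, Asns, Hspa5, Xbp1) and Omp were named for their role after their values were seen. The markers Gap43, Lgr5 and Ugt2a1 were named for their values. The members and lists were chosen with earlier results of these data known. The alternatives were offsets of 16 and 50, uncorrected signal, the processed signal with either normalization, scaling to the 75th percentile, cyclic loess, flagged spots kept, dim probes left out, the most intense probe, an intensity trend, the replicate number as a block, 1 slide alone, each array left out and scaling to mature ORN markers.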

Additional observations from a re-analysis of the deposited data

How the results depend on the processing

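The calls of the pathway genes depended on the processing. Called higher (1 as reported) were 2 with an offset of 16, 7 with an offset of 50, 4 without background correction, 6 with the processed signal and quantile normalization, 10 with dim probes left out and 12 with an intensity trend. Called lower (4 as reported) were 7 with dim probes left out, 13 with the trend and 23 after scaling to the mature ORN markers, and 3 to 6 in the others but the block and single arrays left out. Kdm1b lost its call without background correction (limma, FDR 0.257), with the processed signal scaled (0.418) or quantile normalized (0.305), with scaling to the 75th percentile (0.359) and with its most intense probe (0.353), while Rtp4, Ldb2, Edem1 and Chac1 were called in the 11 tested alternatives other than the block, the 4 fits with an array left out and the scaling to markers. Members called were 2 higher with the trend and 1 lower (Kdm1a) after scaling to the markers, and 0 elsewhere. Over all genes the tested alternatives called 1410 to 9702 genes, except that 0 were called with the replicate number as a block or with any 1 array left out. The cause was not tested, except that dim probes left out means fewer genes tested (29495).

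With the replicate block, 0 pathway genes were called higher and 0 lower. Deviations of arrays with the same number did not run together (correlation -0.08), so the numbers were not taken to pair the arrays. With each array left out in turn, pathway calls ranged from 0 to 0 in either direction. The lowest FDR of any gene was then 0.404 to 0.683, so no call could be made, and this says nothing about stability.

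Ddit3 turned to 0.050 with the processed signal scaled to the 75th percentile and 0.041 with it quantile normalized, and Ldb1 to -0.0026 with its most intense probe. With 1 array left out, Ddit3 ran from -0.073 to 0.021, Ebf1 from -0.033 to 0.12 and Emx2 from -0.0080 to 0.062. Scaling to the markers takes the markers' mean shift of 0.21, to which Omp contributes, from every gene, and the median of all genes went to -0.21. By this construction it turned Rtp1 to -0.071, Rtp2 to -0.10, Reep1 to -0.037, Lhx2 to -0.13, Ldb1 to -0.16, Emx2 to -0.19, Ebf1 to -0.17, Atf5 to -0.10 and Omp to -0.067. The slide as a random block was not run, because 0 of the 45604 genes gave a correlation estimate.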
